A study of Rattus norvegicus with 16 samples.

Results

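The conjugation enzymes of drug and steroid metabolism were followed in rat hepatoma H35 cells with a silenced Pdrg1 gene, on arrays that carried probes for 3 enzyme superfamilies. These are the glutathione S-transferases (GST), the UDP-glucuronosyltransferases (UGT) and the cytosolic sulfotransferases (SULT). Members were chosen by gene name, as every probe for a cytosolic or microsomal GST, a UGT of families 1 to 3 or any SULT. The choice gave 58 of the 30367 probes, for 49 of 26269 gene names. Of these, 28 probes (24 genes) were GSTs, 15 probes (12 genes) UGTs and 15 probes (13 genes) SULTs.

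H35 is an established line of rat hepatoma cells, and Pdrg1 (p53 and DNA damage regulated gene 1) was silenced with plasmids that express a short hairpin RNA (shRNA). The negative control CN-10 was a stable clone that carried a plasmid with a control sequence. The groups 4-18 and 3-44 were stable clones that carried the silencing sequences shRNA4 and shRNA3, and shRNA3T was a transiently transfected pool of cells enriched for the shRNA3 plasmid. All cells were selected with G418 at 1.8 mg/ml, the pool at that dose alone, and the 3 clones then at 4 mg/ml as well. Each stable group is 1 clone, so differences between clones of the same plasmid could not be seen, and no control pool was analysed here. The labels call the 4 samples of each group biological replicates without saying how the cultures were separated, so the p-values measure only the spread between these samples. The 3 comparisons with CN-10 share the same 4 control arrays, and their values are therefore set side by side.

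Conjugation enzymes attach a polar group to a lipophilic compound so that it can be exported into bile or blood. GSTs transfer glutathione to electrophiles, UGTs transfer glucuronic acid from its UDP-sugar inside the endoplasmic reticulum, and SULTs transfer sulfate from the donor PAPS in the cytosol. The liver is a main site of conjugation, though not of every member, and the substrates of these enzymes include bilirubin, bile acids, steroid and thyroid hormones, products of lipid peroxidation and many drugs.

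Values are log2 intensities after background correction and quantile normalization, and differences are log2 fold changes from the linear model of limma with 1 mean per group over the 16 arrays. A probe was called when it differed by at least 2-fold with an adjusted p under 0.05 (Benjamini-Hochberg over all probes), and a gene was counted once. Between 53.1% and 74.3% of spots on an array were well above background, and the 4 arrays of 4-18 were the dimmest (53.1% to 64.1%). Each group lay on a slide of its own, so that an effect of the slide cannot be told apart from one of the group. Array 1 of 3-44 and of shRNA3T stood apart for single members, as for Gstt1 and Gstm3. Such arrays numbered 7 among 118 groups of values from the members named below, 6 of them array 1, where chance gives about 1 in 20 groups, and the 6 pairs of number 1 arrays deviated together (correlation 0.175 to 0.443). Values without array 1 of every group are given where a call was lost or gained. Pdrg1 itself read 13.41, 13.88, 13.51 and 13.77 on the CN-10 arrays, 11.57, 13.33, 13.34 and 13.25 on 4-18, 11.89, 12.86, 12.90 and 12.95 on 3-44, and 12.39, 12.90, 12.97 and 12.90 on shRNA3T. All silenced arrays were below those of CN-10. The differences were -0.77 in 4-18, -0.99 in 3-44 and -0.85 in shRNA3T (adjusted p = 0.129, 0.105 and 0.143), and none was called. Array 1 was the lowest in every silenced group, by most in 4-18 (11.57 against 13.25 to 13.34), where the size of the difference rested largely on it. Hepatocyte markers were present (mean Alb of 17.22 in CN-10). Of 19 markers of other cell types, 3 were above background on all 16 arrays (Col1a1, Cdh5 and Cd14), 6 on 15 arrays (Sox9, Col1a2, Acta2, Des, Cd68 and Csf1r), 7 on fewer and 3 on none (Ptprc, Pecam1 and Epcam, which define leukocytes, endothelium and bile duct epithelium). Cd14 was higher in 3-44 (2.04) and Des lower in 4-18 (-1.17), and no other marker of this list was called against CN-10. The summed intensity of the 19 was 3041 to 3153 over the arrays of CN-10, 3055 to 3265 in 4-18, 4094 to 4936 in 3-44 and 3264 to 3632 in shRNA3T. The higher sum in 3-44 came from Cd14 alone, which read 8.42 to 9.11 in CN-10 and 10.64 to 11.26 in 3-44. Markers at background add to every sum. Hepatocyte markers also differed from CN-10. Ttr was called higher in all 3 silenced groups (2.93 in 4-18, 2.84 in 3-44 and 2.39 in shRNA3T). Apoa1 was lower in 4-18 (-2.12) and higher in 3-44 (2.18), Apob and Tf were lower in 4-18 (-1.09 and -1.501), and Serpina1, Fgb and Cps1 were higher in shRNA3T (1.496, 1.16 and 1.65). The part of these markers, and of those of other cell types, in the results below was not tested. In RNA from whole cultures, a change in all cells and a change in some of the cells cannot be told apart.

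Of the 58 probes, 37 were well above background on all 16 arrays, 43 (35 genes) on every array of 1 group or more, and 4 nowhere. All 58 were tested. In 16 genes a probe was called in at least 1 comparison with CN-10, a further 2 genes were called only between silenced groups, and 31 genes were called in none of the 6 comparisons. Clone 4-18 differed from CN-10 in the largest number of members. Against CN-10, 14 of 58 probes (24.1%) were called, beside 5.91% of all probes (2.55% higher and 3.36% lower), and they belonged to 4 genes that were higher (Gstm7, Gstt1, Gstt3 and Ugt2b5) and 7 that were lower (Gsta3, Gsta5, Gstm1, Gstm3, Sult2al1, Ugt2b36 and Ugt2b7). Clone 3-44 had 5 called probes (8.62%, beside 1.4% of all probes, 0.682% higher and 0.721% lower), for 4 genes that were higher (Gstm2, Gstm3, Mgst3 and Sult1b1) and 0 that were lower by limma. At an unadjusted p under 0.05, 14 member probes were higher in 3-44 and 3 lower (Gstm7, Sult2al1 and Ugt2b7), beside 8.71% and 10.6% of all probes. In the pool shRNA3T 8 probes were called (13.8%, beside 2.29%, 1.12% higher and 1.17% lower), for 5 higher genes (Gsta4, Gstm3, Sult1b1, Sult2al1 and Ugt2b1) and 1 lower gene (Ugt2b7).

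**Figure D1:**
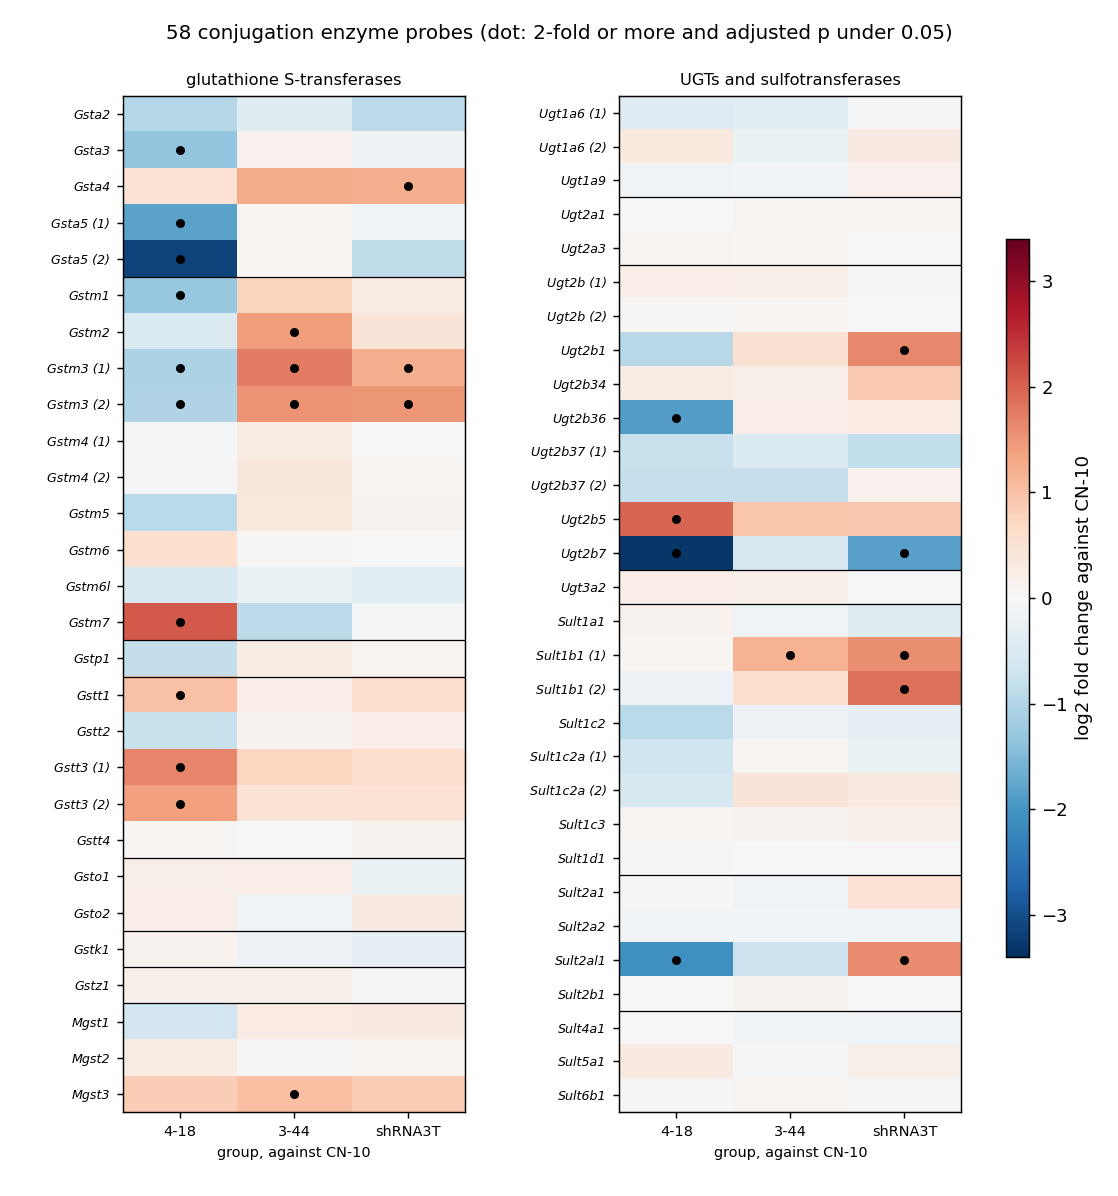
Log2 fold change of each of the 58 conjugation enzyme probes (rows, grouped by family, with a number where a gene has several probes) in 4-18, 3-44 and shRNA3T against CN-10, in color from blue (lower) to red (higher). Black dots mark called probes, of which 14 lie in the 4-18 column, 5 in the 3-44 column and 8 in the shRNA3T column.

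The median over all members includes probes at background. The member median log2 fold change was -0.0453 in 4-18, 0.107 in 3-44 and 0.0929 in shRNA3T, beside 0.0057, -0.00306 and -0.00724 over all probes. In 4-18 the gap between them, members minus all probes, depended on the setting. It was -0.051, and it became -0.662 with arrays scaled to their 75th percentile, -0.629 with median scaling, -0.647 with the values as deposited and -0.252 over the 37 member probes above background on all 16 arrays. Over the 43 member probes above background on every array of 1 group or more it was -0.467. In 3-44 the gap of 0.11 became 0.282, and in shRNA3T that of 0.1 became 0.336, with the processed signal scaled to its 75th percentile. Without array 1 of every group, the gap in shRNA3T was 0.0378. Probes whose 4 arrays did not overlap with those of CN-10 numbered 24 of 58 in 4-18, 16 in 3-44 and 23 in shRNA3T, where the shares over all probes were 23%, 16.1% and 21.9%. By superfamily, 10 of 28 GST probes, 3 of 15 UGT probes and 1 of 15 SULT probes were called in 4-18. The corresponding counts were 4, 0 and 1 in 3-44 and 3, 2 and 3 in shRNA3T. The split between higher and lower genes in 4-18 depended on the scaling of the arrays. With arrays scaled to their 75th percentile, the median of all probes was 0.862, that of the members 0.2, and the split became 19 higher and 6 lower, and with the unscaled values as deposited it was 2 and 15. In 3-44 the split of 4 and 0 became 3 and 1 with the processed signal of the scanner software under both scalings tried, 1 and 1 with the values as deposited, and 5 and 1 with a normexp offset of 10. Without array 1 of every group it was 3 and 1, where Sult2al1 was called lower (-1.08, adjusted p = 0.0162). In shRNA3T the split of 5 and 1 became 4 and 2 with median scaling, 5 and 3 with the processed signal scaled to its 75th percentile and 2 and 1 in the deposited table. It was 7 and 2 with the quantile-normalized processed signal and 7 and 3 without CN-10 array 4.

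Alpha-class GSTs, abundant cytosolic enzymes of the hepatocyte, were lower in 4-18 than in the other groups for 2 of 4 genes. The strongest difference was in Gsta5 (named Gsta3 in the current RefSeq annotation), which has 2 probes at chr9:20026897-20029435 and chr9:20031594-20031653 (rn4, + strand). Their sequences are shown because both probes gave the same direction from different parts of the transcript:
Gsta5 probe A_64_P004231: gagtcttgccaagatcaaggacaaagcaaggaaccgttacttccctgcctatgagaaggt
Gsta5 probe A_64_P035291: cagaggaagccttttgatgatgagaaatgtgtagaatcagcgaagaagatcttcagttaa

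The second of these Gsta5 probes read 12.61, 12.63, 13.13 and 13.08 on the CN-10 arrays, 9.66, 9.30, 9.65 and 10.22 on 4-18, 13.14, 12.88, 12.94 and 12.72 on 3-44, and 11.96, 12.10, 11.90 and 12.02 on shRNA3T. All arrays of 4-18 lay below every array of the other 3 groups, and shRNA3T lay between them. Gsta5 differed from CN-10 by -3.15 in 4-18 (SE 0.17, adjusted p = 5.91e-09), a level 8.88-fold lower. It differed by 0.059 in 3-44 (adjusted p = 0.906) and by -0.87 for the pool (adjusted p = 0.00314), the latter under the fold limit. The first Gsta5 probe, which was brighter, read 15.34, 15.36, 15.52 and 15.25 on the CN-10 arrays, 13.68, 13.76, 12.32 and 14.43 on 4-18, 15.59, 15.40, 15.56 and 15.34 on 3-44, and 15.26, 15.31, 15.13 and 15.19 on shRNA3T. Here too 4-18 was below all other arrays, with a difference of -1.82 from CN-10 (SE 0.293, adjusted p = 0.000314), and its own arrays spread more widely.

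Gsta3 (Gsta1 in RefSeq), the other alpha-class gene on chromosome 9 and represented by 10 spots per array, read 16.07, 16.33, 16.02 and 16.41 on the CN-10 arrays, 14.83, 14.82, 15.01 and 14.77 on 4-18, 16.17, 16.44, 16.49 and 16.25 on 3-44, and 15.69, 16.21, 16.15 and 16.10 on shRNA3T. Its 4 arrays of 4-18 did not overlap with any other group. The difference from CN-10 was -1.35 in 4-18 (SE 0.123, adjusted p = 1.58e-06), 0.13 in 3-44 and -0.17 in shRNA3T, and the latter pair was not called (adjusted p = 0.632 and 0.503). Gsta2, on chromosome 8, differed by -0.96 in 4-18 (adjusted p = 0.00292) and -0.88 for the pool (adjusted p = 0.01), just under the fold limit in both.

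Gsta4, which conjugates 4-hydroxynonenal from lipid peroxidation, ran the other way. It read 13.69, 13.65 and 14.30 on the CN-10 arrays (with 1 spot set aside), 14.48, 15.19, 13.03 and 14.75 on 4-18, 15.37, 15.15, 15.07 and 14.94 on 3-44, and 14.92, 15.05, 15.16 and 15.33 on shRNA3T. The arrays of 3-44 and shRNA3T were all above those of CN-10, while those of 4-18 spanned both. Gsta4 differed by 1.24 in shRNA3T (SE 0.366, adjusted p = 0.0418) and by 1.25 in 3-44 (adjusted p = 0.053), which did not pass. The call in shRNA3T was lost with each of the 5 other scalings tried and with the values as deposited (adjusted p = 0.0527 to 0.237), without any 1 of 10 of the 16 arrays, and without array 1 of every group (1.21, adjusted p = 0.166). In 3-44, Gsta4 was called in 10 of the 35 other settings, among them the fit with a replicate block (1.16, adjusted p = 0.0479), the fit of only the 2 groups compared (adjusted p = 0.0063) and the one without 4-18 array 3 (adjusted p = 0.00108).

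The mu-class GSTs held members that moved in opposite directions. In rn4 their 10 probes lie within 149 kb on chromosome 2, in the order Gstm5, Gstm6l, Gstm7, Gstm6, Gstm3, Gstm2, Gstm1 and Gstm4. Gstm7 was higher in 4-18, and Gstm1 and Gstm3 were lower there, whereas Gstm3 was higher in 3-44 and shRNA3T and Gstm2 in 3-44. The probes that carry this contrast are those of Gstm7 at chr2:203491529-203491588 and of Gstm3 at chr2:203532376-203532435 (both on the - strand). The probe pair of Gstm3 differs at 2 bases, in capitals, which are C53G and G55C from the first to the second probe, counted from the 5′ end:
Gstm7 probe A_42_P716352: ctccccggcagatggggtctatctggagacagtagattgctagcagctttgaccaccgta
Gstm3 probe A_64_P025858: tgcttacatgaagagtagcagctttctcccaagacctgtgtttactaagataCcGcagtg
Gstm3 probe A_64_P166081: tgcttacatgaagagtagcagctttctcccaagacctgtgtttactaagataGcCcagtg

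Gstm7 read 7.85, 7.65, 8.01 and 7.71 on the CN-10 arrays, 10.34, 9.88, 9.78 and 9.60 on 4-18, 7.11, 7.03, 6.996 and 6.58 on 3-44, and 7.84, 7.69, 7.66 and 7.73 on shRNA3T. Its 4-18 arrays were the highest and its 3-44 arrays the lowest, and neither overlapped with CN-10. Gstm7 differed from CN-10 by 2.09 in 4-18 (SE 0.147, adjusted p = 9.83e-08, 4.27-fold), by -0.88 in 3-44 (adjusted p = 0.00147) and by -0.076 for the pool (adjusted p = 0.867). In 3-44, Gstm7 was called lower in 4 other settings. These were the processed signal under both scalings, a normexp offset of 10 and the values as deposited. The direct difference between the clones 4-18 and 3-44 was 2.97 (adjusted p = 2.4e-09, 7.84-fold).

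Gstm3 showed the reverse order. The first probe read 8.15, 7.90, 8.25 and 7.64 on the CN-10 arrays, 6.78, 6.79, 7.08 and 6.96 on 4-18, 10.05, 9.79, 9.56 and 9.48 on 3-44, and 8.64, 9.45, 9.45 and 9.35 on shRNA3T. The 4-18 arrays were the lowest, with 2 of 4 well above background, and all arrays of 3-44 and shRNA3T were above those of CN-10. Differences from CN-10 were -1.08 in 4-18 (adjusted p = 0.000514), 1.74 in 3-44 (adjusted p = 3.42e-05) and 1.24 for the pool (adjusted p = 0.000371), with an SE of 0.185. The decrease in 4-18 lay near the limit of the call. It measured -0.983 without CN-10 array 3 and -0.995 without array 1 of every group, and it was not called with 3 of the other scalings or in the deposited table (-0.956 to -0.263). In the deposited table the calls in 3-44 (1.70, adjusted p = 0.0868) and in the pool (1.29, adjusted p = 0.196) were lost too, the latter also at the 75th percentile (adjusted p = 0.0707).

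In 4-18, none of the arrays read the second Gstm3 probe well above background, and the fold is then a bound, for which each array's dimmest signal above background replaced that of the probe where it was brighter. It was at least 1.86-fold lower in 4-18 than in CN-10, at least 5.39-fold lower than in 3-44 and at least 5.25-fold lower than in shRNA3T. It rose by 1.54 in 3-44 and by 1.499 in shRNA3T (adjusted p = 2.33e-05 and 1.55e-05). The call in 4-18 was lost in 6 settings of processing (-0.996 to -0.0417), without any 1 of 6 arrays and without array 1 of every group (-0.991). Both probes put 4-18 lowest, and on the first probe its direct difference from 3-44 was -2.82.

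Gstm1, a major mu-class enzyme of rat liver, read 15.47, 15.08, 15.48 and 14.92 on the CN-10 arrays, 13.95, 13.59, 14.41 and 13.81 on 4-18, 16.28, 15.85, 15.93 and 15.88 on 3-44, and 15.73, 15.39, 15.49 and 15.37 on shRNA3T. Its arrays ranked 4-18 below CN-10 and CN-10 below 3-44 without overlap, and shRNA3T overlapped with CN-10. Gstm1 differed by -1.30 in 4-18 (SE 0.172, adjusted p = 5.42e-05), 0.75 in 3-44 (adjusted p = 0.0137) and 0.26 for the pool (adjusted p = 0.426). The call in 4-18 was lost with the processed signal under both scalings (-0.818 and -0.904). Between 4-18 and 3-44 the difference was -2.04 (adjusted p = 7.29e-07). Gstm2, its neighbour in rn4, read 14.10, 13.46, 14.05 and 13.40 on the CN-10 arrays, 13.30, 12.84, 13.85 and 13.07 on 4-18, 15.42, 15.07, 15.15 and 15.08 on 3-44, and 14.29, 14.25, 14.22 and 14.01 on shRNA3T. All 3-44 arrays were above every other array. Gstm2 rose by 1.43 in 3-44 (adjusted p = 0.000355), and its differences in 4-18 (-0.49) and shRNA3T (0.44) did not pass (adjusted p = 0.093 and 0.204).

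The remaining mu-class genes were not called against CN-10 with the reported processing. In 4 other settings Gstm5 was called lower in 4-18 than in CN-10. These were median scaling, the values as deposited, and leaving out CN-10 array 4 or 4-18 array 4. With the reported processing Gstm5 was called only between silenced groups, lower in 4-18 than in 3-44 (-1.25, adjusted p = 0.0062) and than in shRNA3T (-1.03, adjusted p = 0.022), and in the latter comparison the arrays overlapped. The spread of Gstm5 in 4-18 was wide, from 10.45 to 12.21. Without array 1 of every group neither passed, at -0.981 and -0.851, and the second call was also lost with the processed signal (-0.845 and -0.822), in the fit of only the 2 groups compared (adjusted p = 0.0877), with array weights (-0.977) and without array 1 or 3 of 4-18 or array 2 or 4 of shRNA3T. Both probes of Gstm4 stayed within 0.38 of CN-10 in all 3 groups, and Gstm6 was above background on 2 of 4 arrays in CN-10 and 3 of 4 in 4-18. Gstm6l was dim as well, with 1 of 4 arrays of 4-18 above background.

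**Figure D2:**
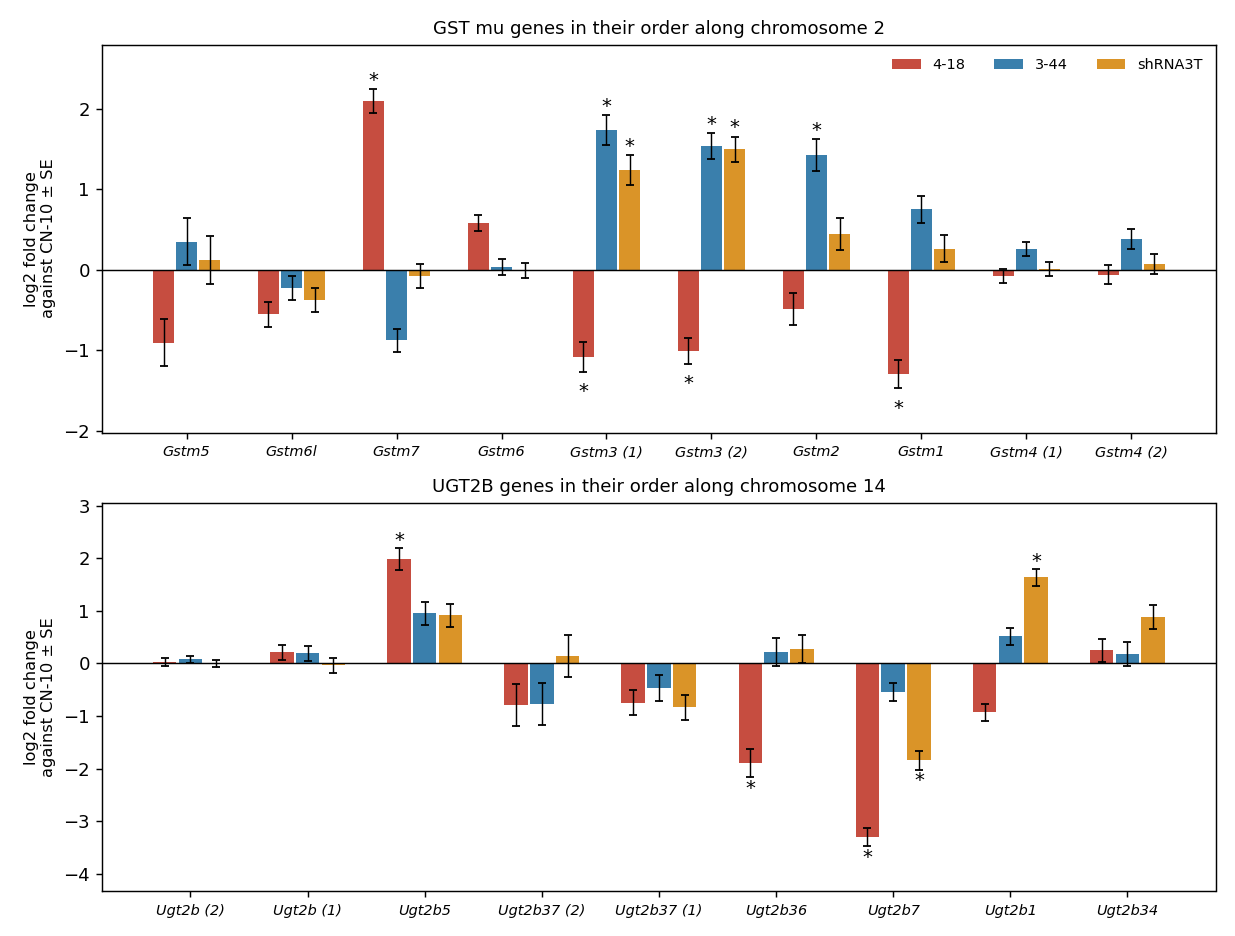
Log2 fold change against CN-10 with its SE (bars and error bars) for the mu-class GST probes on chromosome 2 (top) and the UGT2B probes on chromosome 14 (bottom), in their order on the rn4 build with no scale of distance. Asterisks mark called probes, and the 4-18 bars point up for Gstm7 and Ugt2b5 and down for Gstm1, Gstm3, Ugt2b36 and Ugt2b7.

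Theta-class GSTs, which act on small halogenated compounds among others, were higher in 4-18 for Gstt3 and Gstt1. The brighter probe of Gstt3 read 10.59, 10.45, 10.502 and 10.36 on the CN-10 arrays, 12.35, 11.87, 12.37 and 11.96 on 4-18, 11.47, 10.997, 11.18 and 11.20 on 3-44, and 10.68, 11.19, 11.24 and 11.15 on shRNA3T. CN-10 was below all 3 silenced groups on every array, and 4-18 was highest. The differences were 1.66 in 4-18 (SE 0.145, adjusted p = 9.5e-07), 0.73 in 3-44 (adjusted p = 0.00512) and 0.59 for the pool (adjusted p = 0.0145). The other Gstt3 probe gave 1.38, 0.46 and 0.49, without overlap with CN-10 in any group. Gstt1, its neighbour in rn4, read 10.33, 11.41, 10.45 and 11.27 on the CN-10 arrays, 11.64, 12.08, 11.99 and 11.76 on 4-18, 9.87, 11.38, 11.50 and 11.55 on 3-44, and 11.31, 11.52, 11.51 and 11.46 on shRNA3T. Its difference of 1.01 in 4-18 (SE 0.325, adjusted p = 0.0349) was close to both limits and fell to 0.83 without CN-10 array 1, 0.869 without CN-10 array 3 and 0.898 without array 1 of every group, and the call was also lost without array 2, 3 or 4 of 4-18, with median scaling (0.545), cyclic loess (0.948), array weights (0.924) and the values as deposited (0.316). For Gstt3 both probes were under the fold limit in 4-18 with the values as deposited (0.950 and 0.839). Gstt2 differed by -0.76 in 4-18 (adjusted p = 0.0121), under the fold limit.

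Gstp1, the pi-class enzyme known as a marker of preneoplastic foci in rat liver, was among the brightest probes in H35 cells and read 16.45, 16.36, 16.61 and 16.68 on the CN-10 arrays, 15.83, 15.53 and 15.83 on 4-18 (with 1 spot set aside), 17.05, 16.60, 16.76 and 16.70 on 3-44, and 16.86, 16.61, 16.52 and 16.47 on shRNA3T. The 3 values of 4-18 were below all others. Gstp1 differed from CN-10 by -0.80 in 4-18 (SE 0.13, adjusted p = 0.000431), under the fold limit, and from 3-44 by -1.05 (adjusted p = 4.76e-05), which was called. Without 3-44 array 1 the latter was -0.959 and without 4-18 array 3 it was -0.944, so that the call was lost, as it was with the processed signal under both scalings (-0.479 and -0.540). The difference of 4-18 from CN-10 was called with median scaling and with the values as deposited.

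Among the membrane-bound microsomal GSTs, Mgst3 was higher in all 3 silenced groups. It read 9.98, 10.58, 10.95 and 10.72 on the CN-10 arrays, 11.36, 11.60, 11.23 and 11.40 on 4-18, 11.92, 11.56, 11.52 and 11.31 on 3-44, and 11.59, 11.35, 11.40 and 11.32 on shRNA3T. No silenced array overlapped with CN-10. Mgst3 differed by 0.84 in 4-18, 1.02 in 3-44 and 0.86 in shRNA3T (SE 0.175, adjusted p = 0.00242, 0.00177 and 0.00409), and the 2-fold limit was reached in 3-44 alone. That call was lost without CN-10 array 1 (0.827), without 3-44 array 1 (0.904), without array 1 of every group (0.709), with the processed signal (0.736 under both scalings), with array weights (0.905) and with the values as deposited (0.924). With the processed signal under both scalings, Mgst3 was instead called in 4-18, so the group that reached the limit depended on the setting. Mgst1, which sits in the endoplasmic reticulum and the outer mitochondrial membrane, differed by -0.65 in 4-18 (adjusted p = 0.00466). Gstk1 of mitochondria and peroxisomes, Gsto1, a thiol transferase, and Gstz1, an isomerase of tyrosine breakdown, were bright in every group and were called in no comparison, with differences from CN-10 between -0.28 and 0.22. Mgst2 was bright and not called either, and Gsto2 and Gstt4 were at or near background.

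**Figure D3:**
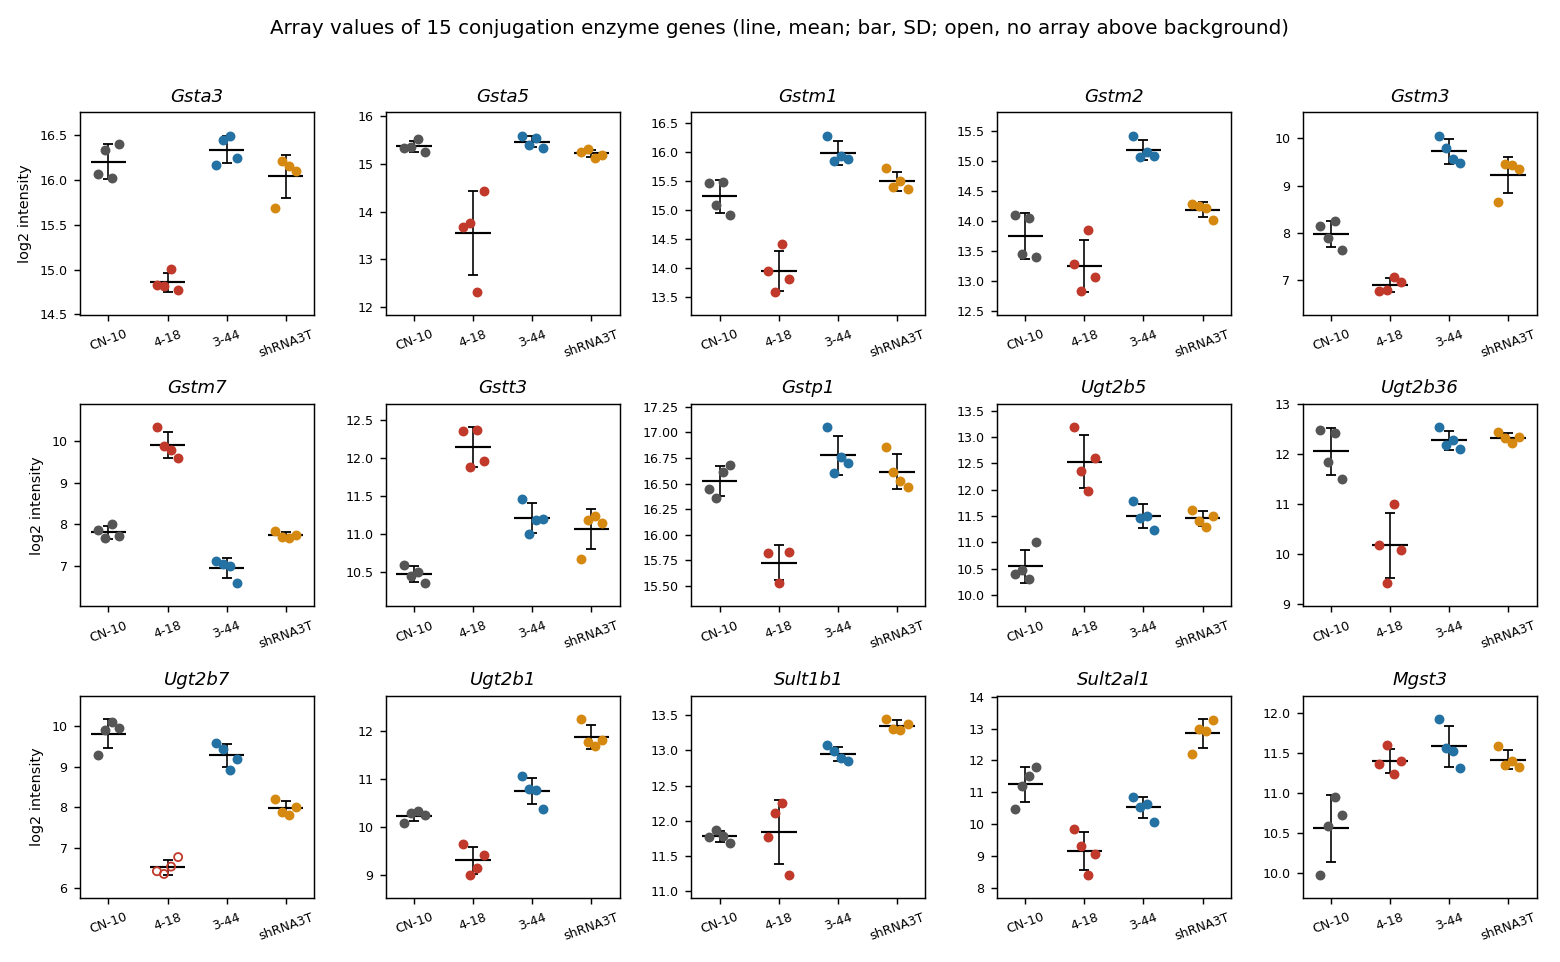
Log2 intensity on each of the 16 arrays for 15 conjugation enzyme genes, each by its brightest probe, with the mean (line) and SD (bar) of each group and an axis of its own per gene. Open symbols mark a group in which no array was well above background, as for Ugt2b7 in 4-18. The 4-18 and 3-44 arrays of Gstm7 lie on opposite sides of CN-10, at 9.60 to 10.34 and 6.58 to 7.11.

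The UGT2B enzymes, which glucuronidate steroids, bile acids and drugs, had 9 probes that lie within 566 kb on chromosome 14 in rn4. In 4-18, Ugt2b5 was higher and Ugt2b36 and Ugt2b7 were lower, and in shRNA3T Ugt2b1 was higher and Ugt2b7 lower. The 4 probes behind these results, at chr14:22366563-22366622 (Ugt2b5), chr14:22478931-22480029 (Ugt2b36), chr14:22522550-22522609 (Ugt2b7) and chr14:22650838-22650897 (Ugt2b1, all on the + strand), are shown because members of this family are similar in sequence:
Ugt2b5 probe A_64_P011301: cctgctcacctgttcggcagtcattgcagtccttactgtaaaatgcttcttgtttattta
Ugt2b36 probe A_44_P236068: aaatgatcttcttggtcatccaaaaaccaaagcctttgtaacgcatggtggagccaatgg
Ugt2b7 probe A_44_P318323: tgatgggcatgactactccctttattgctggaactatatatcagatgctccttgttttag
Ugt2b1 probe A_44_P372277: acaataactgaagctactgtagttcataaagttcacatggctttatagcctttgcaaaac
Over the 1653 pairs of member probes, the longest run of bases that probes for different genes shared was 14, and 1 pair for different genes (Ugt2b and Ugt2b5) was at least 75% identical, at 82.4% over 34 aligned bases. The probes were compared only with each other and not with whole transcripts. Whether a probe also binds the transcript of a related gene was therefore not tested.

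Ugt2b7 read 9.28, 9.91, 10.11 and 9.95 on the CN-10 arrays, 6.41, 6.35, 6.53 and 6.76 on 4-18, 9.57, 9.43, 8.91 and 9.18 on 3-44, and 8.20, 7.87, 7.80 and 7.99 on shRNA3T. No array of 4-18 was well above background, and those of shRNA3T were below all arrays of CN-10 and 3-44. Ugt2b7 differed from CN-10 by -3.30 in 4-18 (SE 0.176, adjusted p = 5.32e-09), at least 8.97-fold lower when taken as a bound. It fell by 1.84 in shRNA3T (adjusted p = 6.67e-06, 3.59-fold), and in 3-44 it differed by -0.54 (adjusted p = 0.0813). The 2 groups with the shRNA3 sequence themselves differed, with 3-44 above shRNA3T by 1.31 (adjusted p = 0.000201), which did not pass at the 75th percentile, with the quantile-normalized processed signal or with the values as deposited (adjusted p = 0.0917, 0.111 and 0.269).

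Ugt2b5 (Ugt2b15 in RefSeq) read 10.39, 10.47, 10.31 and 11.01 on the CN-10 arrays, 13.18, 12.36, 11.97 and 12.61 on 4-18, 11.79, 11.47, 11.50 and 11.23 on 3-44, and 11.62, 11.41, 11.30 and 11.50 on shRNA3T. CN-10 was lowest without overlap, and 4-18 was above the other silenced groups. The differences were 1.99 in 4-18 (SE 0.214, adjusted p = 7.46e-06), 0.95 in 3-44 (adjusted p = 0.0119) and 0.91 for the pool (adjusted p = 0.0106), the latter pair just under the fold limit. Ugt2b36 (Ugt2b35 in RefSeq) read 12.49, 11.84, 12.42 and 11.50 on the CN-10 arrays, 10.18, 9.42, 11.002 and 10.09 on 4-18, 12.54, 12.20, 12.28 and 12.10 on 3-44, and 12.44, 12.33, 12.22 and 12.34 on shRNA3T. The 4-18 arrays were below all others, with a difference of -1.89 from CN-10 (SE 0.27, adjusted p = 0.000107), and the values of 3-44 (0.22) and shRNA3T (0.27) overlapped with CN-10.

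Ugt2b1, next to Ugt2b7 in rn4, read 10.08, 10.28, 10.33 and 10.25 on the CN-10 arrays, 9.64, 9.01, 9.15 and 9.42 on 4-18, 11.06, 10.78, 10.77 and 10.38 on 3-44, and 12.25, 11.77, 11.68 and 11.81 on shRNA3T. The 4 groups did not overlap, with 4-18 lowest, then CN-10, 3-44 and shRNA3T. Ugt2b1 rose by 1.64 in shRNA3T (SE 0.162, adjusted p = 8.69e-06, 3.12-fold). It differed by -0.93 in 4-18 (adjusted p = 0.000587) and by 0.51 in 3-44 (adjusted p = 0.069), neither of which was called. The first was called in 6 other settings, at -1.26 with median scaling, -1.30 and -1.25 with the processed signal under both scalings, -1.5 with the values as deposited, -1.04 without 4-18 array 1 and -1.09 without array 1 of every group. Its neighbour Ugt2b34 (Ugt2b10 in RefSeq) differed by 0.89 in shRNA3T (adjusted p = 0.0179). Both probes of Ugt2b were above background on at most 1 array, and the pair of probes for Ugt2b37 was not called.

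In the RefSeq annotation of the GRCr8 build, 40 member genes have a promoter window (250 bases before to 50 after the start), 42 windows in all. The antioxidant response core TGACNNNGC, searched on both strands, occurred in 7 of the 42 windows (16.7%) and in 12.1% of all 33469 windows. The xenobiotic response core GCGTG occurred in 9 (21.4%, beside 29.7%) and the HNF1 half-site GTTAAT in 8 (19%, beside 7.45%). The antioxidant response core was held by windows of Gsta2, Gsta3, Gsta5, Gstm5, Gstm7, Gstp1 and Gstz1, of which Gstm7 was called higher and Gsta3 and Gsta5 lower in 4-18. Such letters are a description and not a site. A longer run was common to 3 UGT2B genes that moved differently in 4-18. The 250 bases before the start of Ugt2b5 (chr14:21122616-21122865), Ugt2b36 (chr14:21208191-21208440) and Ugt2b7 (chr14:21251285-21251534, all GRCr8, + strand) hold the same 25 bases, shown in capitals:
Ugt2b5 promoter: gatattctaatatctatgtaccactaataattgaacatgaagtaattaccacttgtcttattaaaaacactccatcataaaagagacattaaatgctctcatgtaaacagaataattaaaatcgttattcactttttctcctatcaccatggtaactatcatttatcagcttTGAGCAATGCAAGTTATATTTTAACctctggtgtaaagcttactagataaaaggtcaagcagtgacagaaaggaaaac
Ugt2b36 promoter: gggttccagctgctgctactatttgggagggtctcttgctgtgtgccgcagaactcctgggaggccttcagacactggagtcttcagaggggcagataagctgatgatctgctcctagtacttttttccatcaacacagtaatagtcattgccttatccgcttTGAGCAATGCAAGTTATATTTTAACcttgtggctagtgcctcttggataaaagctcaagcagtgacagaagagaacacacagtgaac
Ugt2b7 promoter: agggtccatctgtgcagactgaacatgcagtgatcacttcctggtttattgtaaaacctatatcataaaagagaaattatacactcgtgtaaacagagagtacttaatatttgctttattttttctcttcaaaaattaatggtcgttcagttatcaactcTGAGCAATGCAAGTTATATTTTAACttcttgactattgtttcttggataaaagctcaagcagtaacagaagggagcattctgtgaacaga
The run began 78, 87 and 90 bases before the start of the 3 genes. It was found in 7 of all 33469 windows (0.0209%), 5 of them of member genes, which were Ugt2b, Ugt2b5, Ugt2b36, Ugt2b37 and Ugt2b7. The run was sought as the longest one common to Ugt2b5, Ugt2b36 and Ugt2b7, the UGT2B genes called in 4-18. That it occurs in genes called higher and lower there was therefore fixed by this choice. Of the other members with the run, Ugt2b37 was not called and Ugt2b was at or near background.

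The other UGTs were not called. Ugt1a6 glucuronidates small planar phenols, and its brighter probe, which the array design also assigns to other UGT1A genes, read 15.52, 15.70, 15.57 and 14.86 on the CN-10 arrays, 14.55, 14.16 and 16.22 on 4-18 (with 1 spot set aside), 15.17, 15.05, 14.96 and 15.05 on 3-44, and 15.54, 15.35, 15.23 and 15.29 on shRNA3T. All silenced groups overlapped with CN-10. Its difference was -0.44 in 4-18 (95% interval -1.20 to 0.33), -0.36 in 3-44 and -0.063 in shRNA3T. Without 4-18 array 3, which was the highest of the 15 values, Ugt1a6 was called lower in 4-18 (-1.06, adjusted p = 0.00156). Its other probe gave 0.34, -0.22 and 0.30. The probes for Ugt1a9, Ugt2a1, Ugt2a3 and Ugt3a2 were at or near background in every group.

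Of the sulfotransferases, Sult1b1 and Sult2al1 were called and most of the others were dim. Sult1b1 sulfates thyroid hormones and small phenols. Its 2 probes, at chr14:22031815-22031874 and chr14:22031825-22031884 (rn4, + strand), share 50 bases, in capitals, and are shown with the probe of Sult2al1 (chr1:74554002-74555601, - strand):
Sult1b1 probe A_43_P12233: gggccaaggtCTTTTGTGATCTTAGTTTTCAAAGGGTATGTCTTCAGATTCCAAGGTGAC
Sult1b1 probe A_64_P053257: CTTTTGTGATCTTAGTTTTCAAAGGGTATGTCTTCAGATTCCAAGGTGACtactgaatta
Sult2al1 probe A_44_P531565: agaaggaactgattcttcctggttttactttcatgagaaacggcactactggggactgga

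The first Sult1b1 probe read 11.77, 11.87, 11.79 and 11.69 on the CN-10 arrays, 11.78, 12.11, 12.26 and 11.24 on 4-18, 13.07, 12.99, 12.90 and 12.85 on 3-44, and 13.45, 13.30, 13.29 and 13.38 on shRNA3T. All arrays of 3-44 were above those of CN-10 and 4-18, and those of shRNA3T were above 3-44. Sult1b1 rose by 1.17 in 3-44 (SE 0.16, adjusted p = 0.00027) and by 1.57 for the pool (adjusted p = 1.19e-05), the groups that carry the shRNA3 sequence, and differed by 0.066 in 4-18 (adjusted p = 0.824). The second probe read 11.25, 11.01 and 11.05 on the CN-10 arrays (with 1 spot set aside), 9.80, 10.93, 11.63 and 11.24 on 4-18, 11.71, 11.64, 10.67 and 12.56 on 3-44, and 13.24, 12.66, 12.70 and 13.25 on shRNA3T. Its spread was wider, and it was called in shRNA3T (1.86, adjusted p = 0.00881) but not in 3-44 (0.54, adjusted p = 0.546), although the probes overlap by all but 10 bases. The call of the first probe in 3-44 was lost with median scaling (adjusted p = 0.0523) and with the values as deposited (adjusted p = 0.0673).

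Sult2al1 (Sult2a6 in RefSeq), of the SULT2A family that sulfates hydroxysteroids and bile acids, read 10.48, 11.18, 11.52 and 11.78 on the CN-10 arrays, 9.83, 9.31, 8.41 and 9.07 on 4-18, 10.84, 10.53, 10.63 and 10.07 on 3-44, and 12.20, 13.00, 12.92 and 13.27 on shRNA3T. The 4-18 arrays were the lowest and the shRNA3T arrays the highest, without overlap with CN-10. Sult2al1 differed by -2.09 in 4-18 (SE 0.32, adjusted p = 0.000205, 4.25-fold lower), rose by 1.61 in shRNA3T (adjusted p = 0.00349, and 0.0588 with the values as deposited) and differed by -0.72 in 3-44 (adjusted p = 0.226). The distance between 4-18 and shRNA3T was -3.69 (adjusted p = 1.24e-06, 12.9-fold). Sult2a1, of the same family, was above background on all 4 arrays of shRNA3T and on 1 other array. Its fitted difference from CN-10 was 0.50 in shRNA3T (adjusted p = 0.00188), which is no measured size, as most CN-10 arrays were not above background. Sult1c2 differed by -0.91 in 4-18 (adjusted p = 0.00031), under the fold limit, and Sult1a1, the phenol sulfotransferase, and Sult5a1 were called nowhere. Of the 2 probes for Sult1c2a neither was called. Probes for Sult2a2 were above background on 4 of 16 arrays, and those for Sult1c3, Sult1d1, Sult2b1, Sult4a1 and Sult6b1 on at most 2 arrays.

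Since the silenced groups share the target gene, members that differed from CN-10 in the same direction in all of them were counted. With the 2-fold limit 0 of 58 probes were called the same way in all 3 comparisons by limma, beside 0.31% of all probes (94 probes). At an unadjusted p under 0.05, 4 probes were higher in all 3 (both of Gstt3, Mgst3 and Ugt2b5) and 1 was lower (Ugt2b7), beside 2.53% and 3.05% of all probes. With no fold limit, 26, 10 and 18 member probes passed in 4-18, 3-44 and shRNA3T (23.6%, 7.85% and 11.9% of all probes), and 3 genes (4 probes) passed in all 3 comparisons, Gstt3, Ugt2b5 and Mgst3, all of them higher, beside 1.1% of all probes higher and 1.19% lower. Ugt2b5 was called in all 3 at the 2-fold limit when CN-10 array 4 was left out. In every other setting tried with the 2-fold limit the count was 0.

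The direct comparisons between silenced groups showed the distance of 4-18 from both groups with shRNA3. Against 3-44, 16 of 58 probes were called (27.6%, beside 4.81%, 1.99% higher and 2.82% lower), with 2 genes higher in 4-18 (Gstm7 and Ugt2b5) and 12 lower. Against shRNA3T the count was again 16 (27.6%, beside 4.32%, 1.77% higher and 2.55% lower), with 3 genes higher (Gstm7, Gstt3 and Ugt2b5) and 10 lower. The genes lower in 4-18 than in both were Gsta3, Gsta5, Gstm1, Gstm3, Gstm5, Sult1b1, Sult2al1, Ugt2b1, Ugt2b36 and Ugt2b7. The arrays did not overlap for 28 of the 58 probes in each of these comparisons, beside 21.4% and 22.2% of all probes, and 27 passed in each with no fold limit, beside 22.1% and 20.1%. Here again the split followed the scaling. Scaling to the 75th percentile gave 15 higher and 12 lower against 3-44 and 17 and 9 against shRNA3T, while against shRNA3T cyclic loess gave 1 and 10 and the values as deposited 1 and 18. Without array 1 of every group, Gstt3 was no longer called against shRNA3T (0.866) nor Ugt2b5 against either (0.905 and 0.903). Single arrays also decided these calls. Gstt3 against shRNA3T was 0.998 without 4-18 array 3 and 0.944 without shRNA3T array 1. Ugt2b5 was 0.815 against 3-44 and 0.856 against shRNA3T without 4-18 array 1, and 0.948 against 3-44 without 3-44 array 4. Sult1b1 against 3-44 was -0.909 without 4-18 array 4. The calls of Gstt3 and Ugt2b5 were lost as well with median scaling, cyclic loess, the processed signal under both scalings and the values as deposited, at 0.369 to 0.999 for Gstt3 against shRNA3T, 0.394 to 0.97 for Ugt2b5 against 3-44 and 0.296 to 0.990 for Ugt2b5 against shRNA3T. With array weights Gstt3 against shRNA3T (0.995) and Ugt2b5 against 3-44 (0.969) were not called either. Ugt2b7, at background in 4-18 and as a bound at least 2.50-fold lower there than in shRNA3T, was not called in this comparison with 3 of the other scalings or with the values as deposited.

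Fewer member probes were called between the 2 groups with the same silencing sequence. Between 3-44 and shRNA3T 4 probes were called (6.9%, beside 2%, 0.925% higher and 1.07% lower), with Ugt2b7 higher in 3-44 and Sult1b1, Sult2al1 and Ugt2b1 lower. The arrays did not overlap for 22 probes, beside 21.8% of all probes, and 10 passed with no fold limit, beside 10.6%. The split of 1 and 3 became 2 and 3 with cyclic loess, 0 and 4 with the quantile-normalized processed signal and 0 and 2 in the deposited table. Sult2al1 was lower in 3-44 (-2.33, adjusted p = 0.00023) and so was Ugt2b1 (-1.13, adjusted p = 0.000331). For Sult1b1 this rested on its second probe alone (-1.32, adjusted p = 0.043), whose call was lost without any 1 of 11 arrays, without array 1 of every group (-1.24, adjusted p = 0.0883), with the replicate block (adjusted p = 0.0529) and in 4 settings of scaling or signal (adjusted p = 0.0707 to 0.105).

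Genes that supply, export or regulate conjugation were read from a list of 59, of which 58 were on the arrays. In 4-18, 4 were called higher and 4 lower, in 3-44 1 was higher, and in shRNA3T 1 was higher and 1 lower, where 5.91%, 1.4% and 2.29% of all probes were called. The counts are of genes (58, with 72 probes) and the shares are of probes. In 3-44 and shRNA3T the list lay close to the share over all probes. The list medians were 0.018, 0.0346 and 0.0234, and those of all probes 0.0057, -0.00306 and -0.00724. Hmox1, which breaks down heme and responds to NRF2, read 9.96, 10.08, 10.06 and 10.06 on the CN-10 arrays, 12.22, 12.56, 11.999 and 12.13 on 4-18, 10.48, 10.69, 10.64 and 11.35 on 3-44, and 10.74, 10.84, 10.83 and 11.05 on shRNA3T. All silenced arrays were above CN-10, and 4-18 was highest (2.18, adjusted p = 1.39e-07), with 0.75 in 3-44 and 0.82 in shRNA3T. Nqo1, a quinone reductase that also responds to NRF2, read 11.19, 11.01, 11.17 and 10.99 on the CN-10 arrays, 9.67, 9.61, 9.79 and 9.03 on 4-18, 10.59, 10.17, 10.30 and 10.26 on 3-44, and 9.77, 9.93, 9.84 and 9.82 on shRNA3T. All silenced arrays were below CN-10, with differences of -1.56 in 4-18, -0.76 in 3-44 and -1.25 in shRNA3T (adjusted p = 1.06e-06, 0.00275 and 2.47e-05), of which the first and the third were called. Nfe2l2, which encodes NRF2, was not called, with 0.0064, -0.35 and 0.092 (SE 0.415).

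Of the regulators, Mafg, a small MAF partner of NRF2, rose by 1.25 in 4-18 (adjusted p = 0.000196), Nr1i2, the pregnane X receptor, by 1.03 (adjusted p = 6.98e-06) and Ppara, the fatty acid receptor, by 1.15 (adjusted p = 1.23e-05). The call of Nr1i2 was lost at 0.992 without CN-10 array 3 and at 0.973 without 4-18 array 1, and with median scaling, cyclic loess, the processed signal under both scalings and the values as deposited it was 0.328 to 0.974. The calls of Mafg and Ppara were lost with median scaling (0.779 and 0.929) and with the values as deposited (0.577 and 0.682). In 3-44 and shRNA3T Nr1i2 differed by 0.74 and 0.48, without overlap with CN-10. Slc7a11, the cystine carrier for glutathione synthesis, fell by 1.03 in 4-18 (adjusted p = 4.01e-06), a call lost at -0.969 without 4-18 array 2, at -0.990 with outlier spots kept, with 3 of the other scalings and with the values as deposited (-0.928 to -0.243). Nnmt, which methylates nicotinamide, fell there by 1.13 (adjusted p = 7.4e-05), a call lost at the 75th percentile (-0.308), with median scaling (-0.780) and with the values as deposited (-0.996), and Abcc1, an export pump for conjugates, by 1.08 (adjusted p = 0.00809), a call lost without 4-18 array 4 (-0.723), with the processed signal (-0.684 and -0.697) and in the fit of only the 2 groups compared (adjusted p = 0.0613).

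The canalicular pump Abcc2, which exports glutathione, glucuronide and sulfate conjugates into bile, read 12.71, 12.76, 12.61 and 12.77 on the CN-10 arrays, 11.84, 11.88, 11.86 and 11.86 on 4-18, 13.30, 13.26, 13.35 and 13.15 on 3-44, and 13.55, 13.44, 13.30 and 13.32 on shRNA3T. The arrays of 4-18 were below CN-10 and those of 3-44 and shRNA3T above it, with differences of -0.85, 0.55 and 0.69 (adjusted p = 5.53e-07, 0.000153 and 1.24e-05), all under the fold limit. Baat, which joins bile acids to taurine or glycine, read 7.70, 7.34, 7.67 and 8.25 on the CN-10 arrays, 7.10, 7.63, 7.76 and 7.79 on 4-18, 8.90, 9.33, 9.56 and 9.25 on 3-44, and 9.35, 9.67, 9.45 and 9.79 on shRNA3T. It rose by 1.52 in 3-44 and by 1.83 in shRNA3T (adjusted p = 0.000186 and 2.23e-05), while 4-18 overlapped with CN-10. With the values as deposited the call in 3-44 was lost (adjusted p = 0.138).

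**Figure D4:**
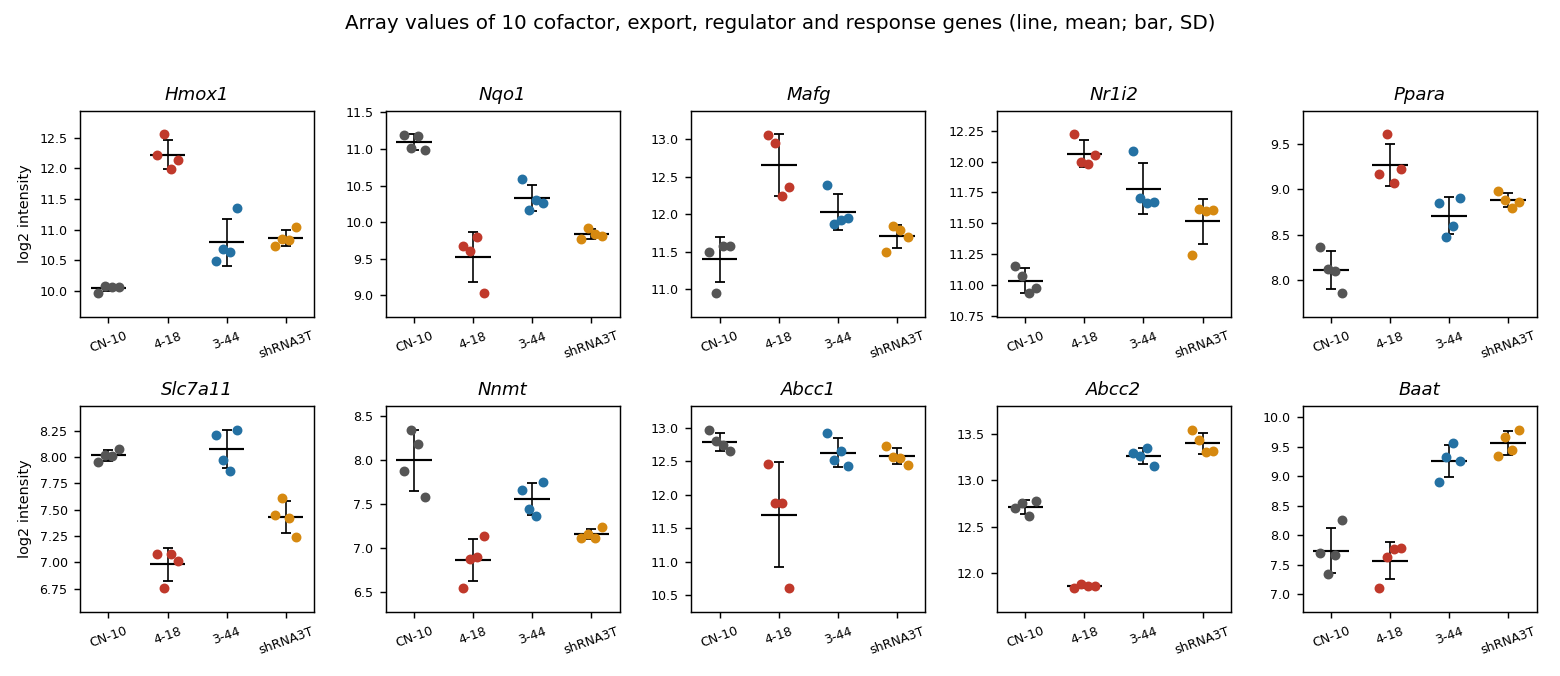
Log2 intensity on each of the 16 arrays for 10 genes of glutathione supply, other conjugation, export, regulation and NRF2 response, with the mean (line) and SD (bar) of each group and an axis of its own per gene. Hmox1 lies at 11.999 to 12.56 in 4-18 against 9.96 to 10.08 in CN-10, and Nqo1 lies below CN-10 in every silenced group.

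Over 35 other settings of processing, all 63 calls of a member probe in a comparison kept their direction, also relative to the median of all probes, and 39 were called in every setting that gave a value. Other fold limits, filters on probes and eBayes options left the log2 fold changes as they were. A direction could not change there, and a looser limit could not lose a call. Leaving out an array of a group not compared reached a comparison only through normalization and the shared spread. Leaving out 1 array at a time kept 51 of the 63 calls and cost 12 at least once. In the other direction, 9 differences of named members from CN-10 in 4-18, 4 in 3-44 and 1 in shRNA3T that were not called reached the 2-fold call in at least 1 other setting. The numbers of genes called moved more than the directions, as the plot of calls by setting shows for 4-18.

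**Figure D5:**
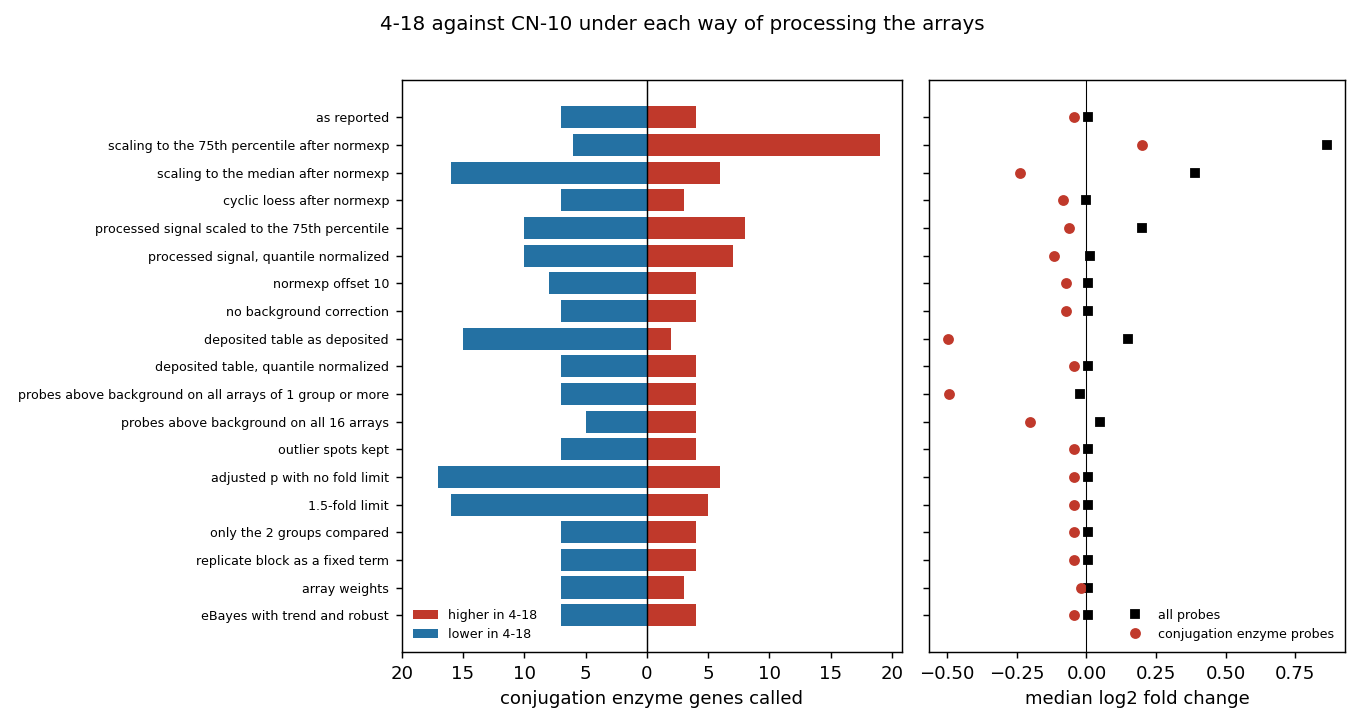
Left, number of conjugation enzyme genes called higher (red, to the right) and lower (blue, to the left) in 4-18 against CN-10 under the reported processing and each alternative. Right, median log2 fold change of all probes (squares) and of the conjugation enzyme probes (circles), where scaling to the 75th percentile moves all probes to 0.862 and the split to 19 higher and 6 lower.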

How the data were processed

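RNA from 16 cultures (4 groups of 4, 200 ng each) was hybridised to one-colour Agilent rat arrays, 1 array per sample, and the scans were quantified by the authors with Feature Extraction 10.7.3.1, per the file headers. The deposited values are spot intensity readings (mean and median pixel intensity, local background and a processed signal) for 44254 spots, 1377 of them controls. A deposited series table, held here as a score because its decimal points are missing, was found to equal the log2 of the background-corrected median signal to within 4e-11 once they were put back, and was not scaled between arrays. From the deposited mean intensity, log2 values were computed with limma 3.58.1 in R 4.3.3 by normexp (offset 50) over all spots, removal of controls, quantile normalization, removal of spots flagged as outliers by the scanner software and averaging over the spots of each probe. The authors named limma for their own processing, with its version not given in the sources used here. A linear model with 1 mean per group and the eBayes step of limma gave each difference, adjusted over the 30365 to 30367 probes with values in both groups. It was tested on simulated data of 29317 probes, where 97 to 100 of 100 probes changed by 1.5 or 2 on the log2 scale were recovered for each fold size and comparison with CN-10, and 0 to 3 probes were wrongly called. The simulated noise was independent between arrays and was drawn on normalized values. Shared deviations of arrays, dimmer slides, background correction and scaling were therefore left out, and so the simulation does not measure their effect on the calls. Smaller changes were not simulated.

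The members and lists were chosen with earlier results of these data known. Named were every member gene called against CN-10 or only between silenced groups, the brightest gene of each family, genes whose probes disagreed, and called genes of the supply, export and regulator list, each by its brightest probe unless another is given. The number of arrays limits the precision. Probe positions are those of the array design (rn4). Names and promoters are from RefSeq (GRCr8), where 52 of 58 probes matched. Probes that list several genes, such as those of Ugt1a6, read all of them. Apart from the gene starts behind the promoters, gene models such as exons were not used here, nor were proteins. Replicate numbers were not taken to pair the samples, since not every same-numbered pair correlated.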

Additional observations from a re-analysis of the deposited data

Results flagged for a closer look

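Single arrays stood apart in 7 of 118 groups of 4 member values tested (Dixon's ratio of the gap to the whole range, at its 95% critical value), where chance gives about 1 in 20. Only probes of the named member genes were tested, most of which were named for a call, and the other members were left out. Array 1 was the one in 6 of the 7. In shRNA3T, array 1 was lowest for Gstm3 (8.64 against 9.35 to 9.45, ratio 0.876) and Gstt3 (10.68 against 11.15 to 11.24, ratio 0.841) and highest for Mgst1 (15.89 against 15.46 to 15.53, ratio 0.844). In 3-44, array 1 was lowest for Gstt1 (9.87 against 11.38 to 11.55, ratio 0.899) and Sult5a1 (8.97 against 9.65 to 9.72, ratio 0.91) and highest for Gstm5 (12.49 against 12.22 to 12.25, ratio 0.891). In 4-18, array 2 was highest for Ugt3a2 (6.78 against 6.18 to 6.21, ratio 0.953), a probe near background.

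In 7 genes, 2 silenced groups lay on opposite sides of CN-10 without overlap, and the direct difference between them passed the test of limma, with an adjusted p under 0.05 and no fold limit. By probe these were 8 of 58 members (13.8%), beside 2.7% of all probes. Gstm1 differed by -2.04 between 4-18 and 3-44. The first probe of Gstm3 differed by -2.82 between 4-18 and 3-44 and by -2.32 between 4-18 and shRNA3T. Its second probe was above background on no array of 4-18, so that its fitted differences of -2.55 and -2.51 are no measured sizes, and as bounds it was at least 5.39-fold and 5.25-fold lower in 4-18. Gstm7 ran the other way, with 2.97 between 4-18 and 3-44. Ugt2b1 differed by -1.45 between 4-18 and 3-44 and by -2.57 between 4-18 and shRNA3T, and Sult2al1 by -3.69 in the latter comparison. Mgst1 (-0.961 between 4-18 and shRNA3T) and Gsto1 (0.404 between 4-18 and shRNA3T and 0.434 between 3-44 and shRNA3T) passed under the fold limit, and neither was called against CN-10.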

How the results depend on the processing

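Of the genes called against CN-10 in 4-18 (11), the count was 25 with arrays scaled to the 75th percentile, 22 with the median, 18 with the processed signal scaled to its 75th percentile, 17 with the processed signal quantile normalized, 17 in the deposited table, 23 with no fold limit and 21 at 1.5-fold. In 3-44 (4 genes) it was 2 in the deposited table, 8 with no fold limit and 8 at 1.5-fold, and in shRNA3T (6) 3, 15 and 13. Between 4-18 and 3-44 (14) it was 27 at the 75th percentile and 22 with no fold limit. For 4-18 against the pool (13) it was 26 at the 75th percentile, 22 with the median, 23 with no fold limit and 20 at 1.5-fold. For 3-44 against the pool (4) it was 2 in the deposited table, 10 with no fold limit and 8 at 1.5-fold. The count called the same way in all 3 comparisons (0) was 3 with no fold limit and 3 at 1.5-fold. For the supply, export and regulator list in 4-18 (8) it was 19 at the 75th percentile, 21 with no fold limit and 16 at 1.5-fold. For that list in 3-44 (1) it was 2 with the processed signal scaled to its 75th percentile, 0 in the deposited table, 0 over probes above background on all 16 arrays, 10 with no fold limit and 5 at 1.5-fold. In shRNA3T (2) it was 7 and 6 with the processed signal (75th percentile and quantile), 1 over probes above background on all 16 arrays, 18 with no fold limit and 12 at 1.5-fold.

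The median over member probes in 4-18 (-0.0453) was 0.2 at the 75th percentile, -0.238 with the median, -0.117 with the quantile-normalized processed signal, -0.498 in the deposited table, and -0.492 and -0.203 over probes above background in 1 group and on all 16 arrays. In 3-44 (0.107) it was 0.202, 0.225 and 0.227 under the first 3 of these, 0.238 with the scaled processed signal, 0.176 at an offset of 10, and 0.188 and 0.214 under the 2 filters. In shRNA3T (0.0929) it was 0.154 with the quantile-normalized processed signal, 0.206 under each filter and 0.0293 without array 1 of every group, an alternative chosen after seeing the data. Under that alternative the median in 4-18 was 0.000199, so its sign was not kept. With cyclic loess the median in 4-18 was -0.0856. Ugt2a1, which is near background, went from -0.092 to 1.28 between 4-18 and shRNA3T at the 75th percentile (adjusted p = 0.0219 by limma), where the median of all probes was 0.967. The causes were not tested.

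With 1 array left out, counts lay between 9 and 13 in 4-18, 3 and 5 in 3-44, 5 and 10 in shRNA3T (10 without CN-10 array 4, which kept all 6 genes), 13 and 17 between 4-18 and 3-44, 12 and 15 for 4-18 against the pool, 3 and 5 for 3-44 set against the pool, and 0 and 1 for all 3 comparisons (1 without CN-10 array 4). The list gave 7 to 8, 1 to 1 and 2 to 2, and the medians were -0.0813 to -0.0181, 0.0792 to 0.126 and 0.0596 to 0.13. Same-numbered arrays had a median correlation of 0.111 over 24 pairs (-0.112 to 0.443, and 0.175 to 0.443 over the 6 pairs of number 1), against -0.0252 over 72 others. With the replicate block the counts were 11, 5, 6, 14, 13 and 3 over the 6 comparisons, in the order above. A slide block was not possible, as each slide holds 1 group. Dim signal limits the 14 genes with no group fully above background.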
